A study of Mus musculus with 4 samples.

Results

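The neurotrophin and GDNF family receptors of the dorsal root ganglion were taken as the rows of the deposited expression matrix named Ntrk2, Ntrk3, Ngfr, Ret, Gfra1, Gfra2 and Gfra3, which are 7 of its 14405 genes. All 7 were present, and all 7 were kept by the filter on low values, which asked for a group mean of 1 FPKM or more. FPKM count the sequenced fragments of a gene relative to transcript length and to the mapped total of the sample, so levels can be compared between genes. The values came from bulk RNA sequencing of these ganglia, which hold the cell bodies of the body's sensory neurons with their glia, in mice of mixed strain aged 10 weeks. There were 2 mutant (Mut) and 2 wild type (WT) samples. The mutants had the genotype Prdm12-/Fl; AvilCreERT2/+, that is 1 null and 1 floxed allele of Prdm12 with 1 copy of a tamoxifen-inducible Cre recombinase expressed from the sensory neuron gene Avil. The wild types were labelled with no further allele. The labels give neither the tamoxifen treatment of either group nor whether each sample was 1 animal or a pool. Prdm12 encodes a transcription factor needed for pain-sensing neurons to form, and the series concerns its role in mature ones. The comparison asked whether the receptors that divide sensory neurons into classes differed between mutant and wild type ganglia at 10 weeks.

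Neurotrophins and the GDNF family ligands are secreted survival factors that act on sensory neurons through receptor tyrosine kinases. Ntrk2 encodes TrkB, the receptor of BDNF and neurotrophin-4, and Ntrk3 encodes TrkC, the receptor of neurotrophin-3. Both mark myelinated neurons, TrkB mainly touch-sensing mechanoreceptors and TrkC mainly proprioceptors and some mechanoreceptors. Ret encodes the kinase shared by the GDNF family ligands, which bind it through co-receptors of the Gfra genes held in the membrane by a lipid anchor. Gfra2, the neurturin co-receptor, is found in nonpeptidergic nociceptors and touch-sensing C fibres, and Gfra3, the artemin co-receptor, in peptidergic nociceptors. Ret, Gfra2 and Gfra3 were therefore treated as nociceptor receptors and Ntrk2 and Ntrk3 as mechanoreceptor and proprioceptor receptors, although Ret and Gfra2 are also used by some large touch neurons. Gfra1, the GDNF co-receptor, is in several neuron types, and Ngfr, the receptor that binds all neurotrophins, is also made by glia, so these 2 were put in neither class.

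Prdm12 was low in both samples labelled mutant. It stood at 1.05 and 1.50 FPKM in Mut 1 and 2, against 7.58 and 10.7 FPKM in WT 1 and 2, and did not pass over all genes (log2 difference -2.14, limma adjusted p = 0.180). In the authors' deposited table it has a log2 change of -2.84, on FPKM with no pseudocount, with q = 0.00742; with a pseudocount of 0.1 the limma difference was -2.75. Avil, the gene that drives the Cre, was at 102 and 164 FPKM in Mut 1 and 2 and at 78.4 and 124 FPKM in WT 1 and 2, with overlap. The authors' deposited table lists 150 genes, and 0 of the 7 receptors are in it. All 13 pan-neuronal markers fixed for the ganglion were in the matrix, with summed levels of 4609 and 6597 FPKM in Mut 1 and 2 and 4296 and 5482 FPKM in WT 1 and 2. FPKM totals were 629900 and 686830 in the mutants and 620018 and 674082 in the wild types. The samples also differed in sex-linked transcripts. The Y-linked gene Eif2s3y, chosen after its values were seen, was at 24.7 and 23.2 FPKM in the mutants and at 21.3 and 0.0252 FPKM in WT 1 and 2. Xist, also chosen after its values were seen, was at 0.0295 and 0.00426 FPKM in the mutants and at 0.0185 and 21.1 FPKM in WT 1 and 2. The sample WT 2 was thus the only one with Eif2s3y near 0 and the only one with Xist well above 0. The groups were not matched in these sex-linked transcripts, and the labels do not give the sex of the animals. Without WT 2, 0 of 7 receptors passed the test, and the log2 differences of Ret, Gfra2 and Ngfr were 0.30, 0.48 and 0.48.

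No receptor passed the test of mutant against wild type ganglia across all genes. With limma on log2(FPKM + 1), 0 of 7 receptors passed an adjusted p of 0.05, where 0 of 14040 genes passed, which is 0% of those tested. At an unadjusted p under 0.05 the count was 0 of 7, against 612 of 14040 genes (4.36%). The median log2 difference, mutant minus wild type, was 0.012 over the 7 receptors and -0.0048 over all genes tested. The 95% intervals of the 7 differences ran from a lowest bound of -0.64, for Ret, to a highest bound of 0.95, for Ngfr. In this fit a 2-fold change thus lay outside each of them on this scale. That did not hold for every receptor when each sample was rescaled to its pan-neuronal genes. Gfra3 was then at -0.41 (SE 0.43), Gfra1 at -0.35 (SE 0.43), Ntrk3 at -0.32 (SE 0.44) and Ret at -0.25 (SE 0.43). A 2-fold decrease lay inside the interval of each of these. A 4-sample design of 2 against 2 cannot give an exact two-sided permutation p below 0.333. Since no label ties the samples to separate animals, the p-values measure only the spread between the samples. Between Mut 1 and Mut 2 that spread may be technical. WT 1 and WT 2 differed in Eif2s3y and Xist, so the spread between them is not technical alone and includes a difference in sex-linked transcripts. In bulk ganglia, fewer cells of a type and less RNA per cell cannot be told apart.

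**Figure D1:**
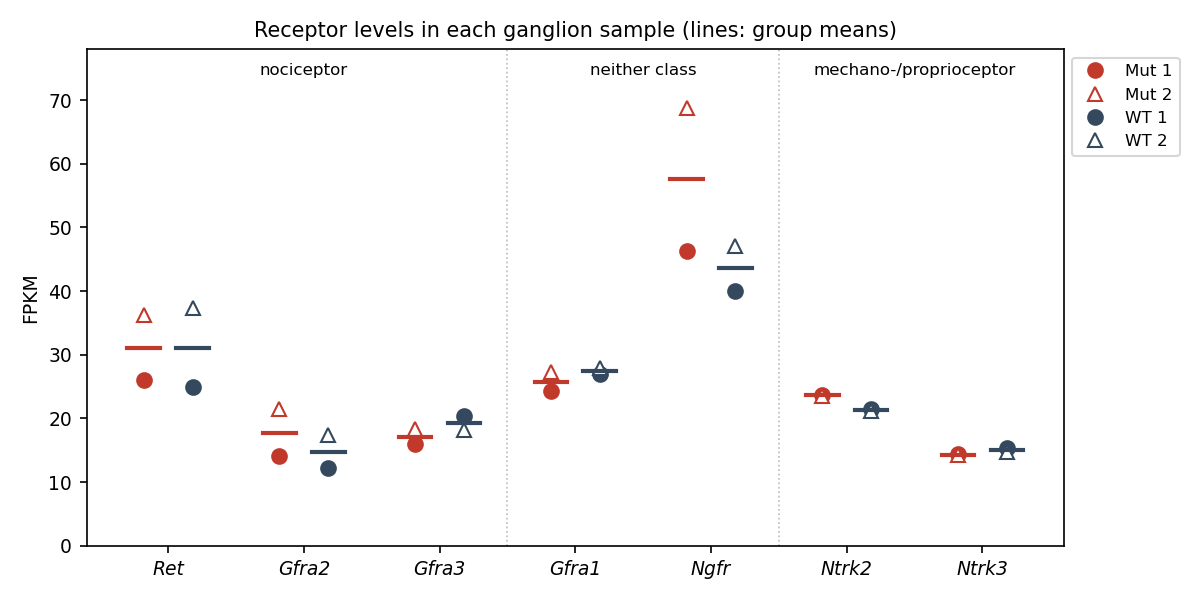
FPKM of the 7 receptors (x axis) in each sample, with the mutants to the left of the wild types and lines at group means (n = 2 each). Mut 2 and WT 2, the open triangles, stood well above Mut 1 and WT 1 for Ret and Gfra2, while the 4 values of Ntrk2 lay between 21.2 and 23.6 FPKM.

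By level, Ngfr came first, with a mean of 50.6 FPKM over the 4 samples, a level above that of 86.4% of the genes tested. Ret followed at 31.1 FPKM, then Gfra1 at 26.6, Ntrk2 at 22.5, Gfra3 at 18.2, Gfra2 at 16.3 and Ntrk3 at 14.7 FPKM. The lowest sample of Ngfr (40.1 FPKM) was above the highest of Ret (37.3 FPKM), and every Gfra1 value was above every Ntrk2 value, which in turn were all above those of Gfra3. The ranges of Ret and Gfra1 overlapped, as did those of Gfra3 and Gfra2 and of Gfra2 and Ntrk3, so these neighbours were not separated in level. The least abundant of the receptors, Ntrk3, was still above 62.2% of the genes tested.

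Ret lies on chromosome 6 at 118151745 to 118197718 on the minus strand (ENSMUSG00000030110.13, GENCODE M21, GRCm38, the assembly of mm10). It was at 26.1 and 36.2 FPKM in Mut 1 and 2, and at 24.9 and 37.3 FPKM in WT 1 and 2. Each genotype held 1 lower and 1 higher sample, and the mutant values lay inside the range of the wild types. The means were 31.1 ± 7.13 FPKM in the mutants and 31.1 ± 8.81 FPKM in the wild types (SD, n = 2 each), with a log2 difference of 0.012 (SE 0.26, 95% interval -0.64 to 0.67, limma adjusted p = 0.997). Without WT 1 the difference was -0.27 and without Mut 2 it was -0.22, so its sign rested on single samples.

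Gfra2 (chromosome 14, 70890120 to 70979838, plus strand) was at 14.0 and 21.5 FPKM in Mut 1 and 2, and at 12.2 and 17.3 FPKM in WT 1 and 2. The groups overlapped, with the second sample higher than the first in each. The log2 difference was 0.24 (SE 0.27, 95% interval -0.43 to 0.91, limma adjusted p = 0.994), and it was -0.05 without Mut 2 and 0.53 without Mut 1. Gfra3 (chromosome 18, 34689898 to 34720387, minus strand) was at 16.0 and 18.3 FPKM in Mut 1 and 2, and at 20.4 and 18.1 FPKM in WT 1 and 2. Only Mut 1 was below both wild types, and Mut 2 lay between them. Its log2 difference was -0.16 (SE 0.16, 95% interval -0.55 to 0.23, limma adjusted p = 0.994). Gfra3 kept a negative value with each sample left out, from -0.25 without Mut 2 to -0.07 without Mut 1.

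Gfra1 (chromosome 19, 58235604 to 58455909, minus strand) was at 24.3 and 27.2 FPKM in Mut 1 and 2, and at 27.0 and 28.0 FPKM in WT 1 and 2, with overlapping groups. The log2 difference was -0.09 (SE 0.15, 95% interval -0.46 to 0.28, limma adjusted p = 0.994). An exon of the annotated antisense gene Gm16277 overlaps an exon of Gfra1 by 416 bases. The sources used here do not say whether counting used strand, so reads from the pair may not be separated. Summed over Gfra1, Gfra2 and Gfra3, the co-receptors came to 54.3 and 67.0 FPKM in Mut 1 and 2 and to 59.6 and 63.4 FPKM in WT 1 and 2. Gfra1 made up 44.8% and 40.6% of that sum in the mutants and 45.3% and 44.1% in the wild types. The share of Gfra2 was 25.8% and 32.1% in the mutants and 20.5% and 27.3% in the wild types, and that of Gfra3 was 29.4% and 27.3% in the mutants and 34.1% and 28.5% in the wild types. Mutants and wild types overlapped in the share of each co-receptor. The co-receptor sum per FPKM of Ret was 2.08 and 1.85 in the mutants, inside the 2.40 and 1.70 of the wild types.

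Ntrk2 (chromosome 13, 58806569 to 59133970, plus strand) had the closest replicates of the 7 receptors. It was at 23.6 and 23.6 FPKM in Mut 1 and 2, against 21.5 and 21.2 FPKM in WT 1 and 2. Both mutants were above both wild types, as for 12.5% of the genes tested, and the ratio of the means was 1.11. The log2 difference was 0.14 (SE 0.14, 95% interval -0.21 to 0.49, limma adjusted p = 0.994), and it ran from 0.13 to 0.15 with each sample left out. It turned to -0.12 when each sample was rescaled to its pan-neuronal genes, a scaling that moved the median of all genes to -0.24. Relative to that median Ntrk2 was at 0.12. The annotation gives Ntrk2 10 transcripts, 7 of them protein-coding. TrkB exists as a full-length form and as truncated forms without the kinase that are known from glia, and a whole-gene FPKM does not separate them.

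Ntrk3 (chromosome 7, 78175959 to 78738012, minus strand) was at 14.4 and 14.2 FPKM in Mut 1 and 2, against 15.3 and 14.8 FPKM in WT 1 and 2. Both mutants were below both wild types, as for 19.6% of the genes tested, by a ratio of the means of 0.952. The log2 difference was -0.07 (SE 0.14, 95% interval -0.41 to 0.28, limma adjusted p = 0.994). Ntrk2 and Ntrk3 were the only receptors whose groups did not overlap, 1 in each direction, and 5 of 7 overlapped. Shares of 1 in 7 are close to the backgrounds of 12.5% and 19.6%.

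Ngfr (chromosome 11, 95568818 to 95587735, minus strand) had the largest difference of the receptors. It was at 46.4 and 68.8 FPKM in Mut 1 and 2, and at 40.1 and 47.0 FPKM in WT 1 and 2. Mut 2 stood above the other samples, while Mut 1 lay between the wild types. The means were 57.6 ± 15.9 FPKM in the mutants and 43.6 ± 4.91 FPKM in the wild types (SD, n = 2 each), with a log2 difference of 0.37 (SE 0.23, 95% interval -0.21 to 0.95, limma adjusted p = 0.994). The difference was 0.09 without Mut 2 and 0.65 without Mut 1, and an unadjusted p of 0.0199 without Mut 1 went with an adjusted p of 0.320. The Schwann cell and myelin markers also had their highest sum in Mut 2. Their summed level over 15 of 15 markers was 11005 and 22553 FPKM in Mut 1 and 2, against 11063 and 8988 FPKM in WT 1 and 2, and 0 of the 15 were at 0 in any sample. The sum of these markers fell from WT 1 to WT 2, where Ngfr rose. The pan-neuronal markers had their highest sum in Mut 2 as well. Their sums were 4609 and 6597 FPKM in Mut 1 and 2 and 4296 and 5482 FPKM in WT 1 and 2. A list of non-myelinating Schwann cell markers includes Ngfr itself. It summed to 132 and 177 FPKM in Mut 1 and 2 and to 107 and 147 FPKM in WT 1 and 2. The part of Schwann cells or of neurons in the Ngfr values was not tested.

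**Figure D2:**
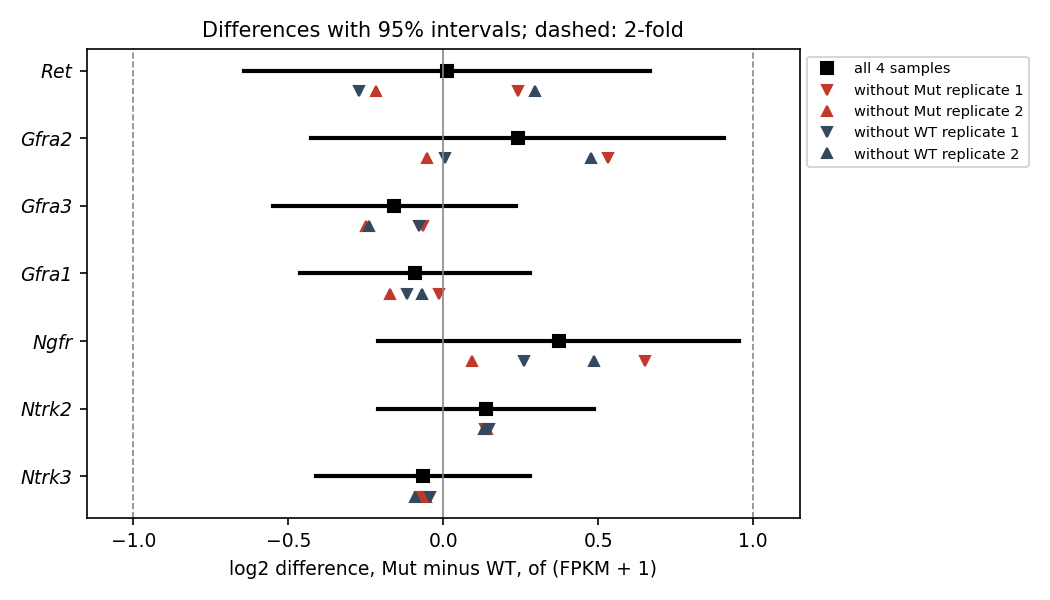
Log2 difference of each receptor, mutant minus wild type, on the log2(FPKM + 1) scale (x axis). Squares with lines are the values from all 4 samples with 95% intervals, and triangles the values with 1 sample left out. All 7 intervals cross 0, and for Ret the left-out values fall on both sides of it, from -0.27 to 0.30.

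The median log2 difference was 0.012 for the 3 nociceptor receptors (from -0.16 to 0.24) and 0.036 for the 2 mechanoreceptor and proprioceptor receptors (from -0.07 to 0.14). With each sample left out, the nociceptor median ran from -0.22 without Mut 2 to 0.30 without WT 2, and that of Ntrk2 and Ntrk3 from 0.019 to 0.053. The gap between the 2 medians, nociceptor minus mechanoreceptor and proprioceptor, was -0.024 with all samples, -0.26 without Mut 2 and 0.28 without WT 2, so its direction rested on single samples. With so few members, chosen with earlier results known, these medians are given as a description with no test. Ret, Gfra2 and Gfra3 together came to 56.1 and 76.0 FPKM in Mut 1 and 2 and to 57.5 and 72.8 FPKM in WT 1 and 2. Ntrk2 and Ntrk3 together came to 38.0 and 37.8 FPKM in the mutants, against 36.8 and 36.0 FPKM in the wild types. The nociceptor sum was 1.47 and 2.01 times the other in Mut 1 and 2, and 1.56 and 2.02 times in WT 1 and 2. The first sample of each genotype thus had the lower ratio, and the genotypes overlapped.

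**Figure D3:**
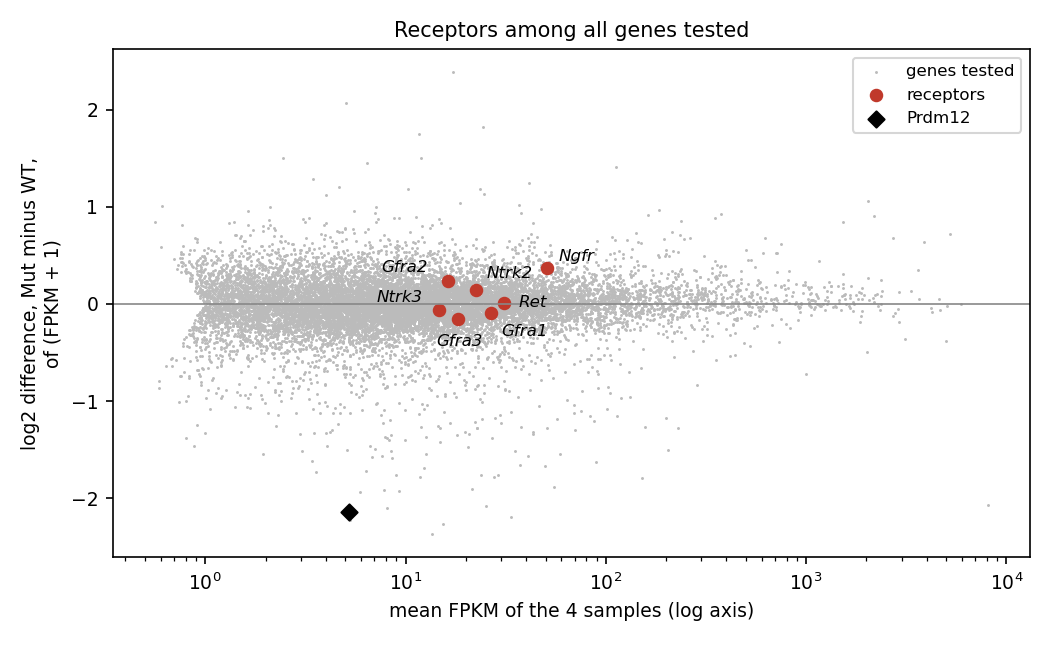
Log2 difference, mutant minus wild type, of (FPKM + 1) (y axis) against the mean FPKM of the 4 samples on a log axis (x axis) for the 14040 genes tested. The 7 receptors lie between -0.16 and 0.37 within the band of other genes, while Prdm12 lies at -2.14.

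Samples of 1 genotype varied more for some receptors than for others. Ret was 1.39 times as high in Mut 2 as in Mut 1 and 1.50 times as high in WT 2 as in WT 1. On the log2 scale that gap was wider than for 80.2% of the genes tested in the mutants and 93.1% in the wild types. Gfra2 had ratios of 1.53 in the mutants and 1.42 in the wild types, wider than for 88.9% and 88.6% of genes. Ntrk2 had ratios of 0.996 in the mutants and 0.987 in the wild types, and only 1.23% and 5.71% of genes had a smaller gap. Ntrk3 was at 0.986 in the mutants and 0.965 in the wild types, with 4.32% and 15.0% of genes below it. Gfra3, a nociceptor receptor, did not share the pattern of Ret, at 1.14 in the mutants and 0.889 in the wild types. Gfra1 was at 1.12 in the mutants and 1.04 in the wild types, and Ngfr at 1.48 in the mutants and 1.17 in the wild types.

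**Figure D4:**
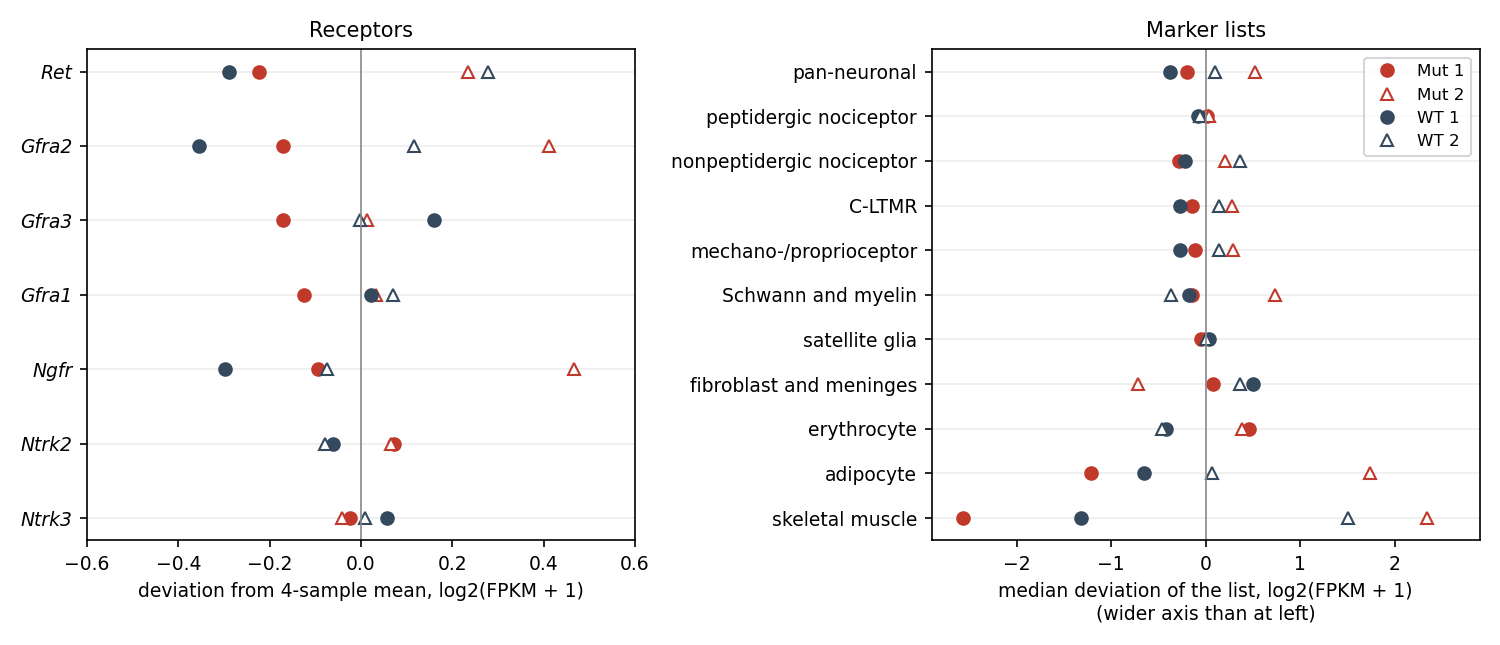
Deviation of each sample from the 4-sample mean on log2(FPKM + 1), for the receptors (left) and as the median over each marker list (right, on a wider axis). Ret and Gfra2 were low in Mut 1 and WT 1 and high in Mut 2 and WT 2. So were the medians of the neuronal lists other than the peptidergic one, and those of muscle and fat. The 4 values of Ntrk2 lie close to 0.

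The neuronal marker lists other than the peptidergic one varied between samples as Ret and Gfra2 did. That includes the list of myelinated mechanoreceptors and proprioceptors, while Ntrk2 and Ntrk3, the receptors of that class, did not vary in that way. The median deviation of 10 nonpeptidergic nociceptor markers from their 4-sample means was -0.29 and 0.21 in Mut 1 and 2, and -0.22 and 0.36 in WT 1 and 2. That of the 13 pan-neuronal markers was -0.20 and 0.52 in the mutants and -0.38 and 0.10 in the wild types, and that of 16 markers of myelinated mechanoreceptors and proprioceptors was -0.12 and 0.29 in the mutants and -0.27 and 0.15 in the wild types. The 6 markers of touch-sensing C fibres gave -0.15 and 0.28 in the mutants and -0.27 and 0.14 in the wild types. The median of 7 peptidergic nociceptor markers was at 0.012 and 0.035 in the mutants and -0.09 and -0.06 in the wild types, over members that went both ways. Both mutants were above both wild types for 4 of the 7 and below them for 2. Over all genes tested the shares were 12.5% above and 19.6% below. The log2 differences of the 7 ran from -0.82 to 0.59. Of the lists, those of muscle and fat varied most. Skeletal muscle markers were at -2.57 and 2.34 in Mut 1 and 2 and at -1.32 and 1.51 in WT 1 and 2, and adipocyte markers at -1.21 and 1.73 in the mutants and -0.65 and 0.07 in the wild types. Fibroblast and meninges markers were at 0.08 and -0.71 in the mutants and at 0.50 and 0.36 in the wild types, erythrocyte markers at 0.46 and 0.38 in the mutants and -0.42 and -0.47 in the wild types, and satellite glia markers at -0.05 and -0.011 in the mutants and 0.04 and 0.0004 in the wild types. The part of these cell types in the receptor values was not tested.

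Set against the geometric mean of the pan-neuronal genes in its own sample, Gfra2 was nearly constant. It was at 14.2% and 13.8% of that mean in Mut 1 and 2, and at 14.1% and 14.3% in WT 1 and 2. Ret was at 26.5% and 23.3% in the mutants, against 28.7% and 30.7% in the wild types, so both mutants were below both wild types on this scale. That difference did not pass after rescaling all genes in this way (log2 difference -0.25, limma adjusted p = 0.969), and the median of all genes was then at -0.24, so that Ret was at -0.011 relative to it. Ntrk2 was at 24.0% and 15.2% in the mutants and 24.8% and 17.4% in the wild types, and Ntrk3 at 14.6% and 9.14% in the mutants and 17.7% and 12.1% in the wild types, with overlap for both. Gfra3 was at 16.2% and 11.8% in the mutants and 23.5% and 14.9% in the wild types, Gfra1 at 24.7% and 17.5% in the mutants and 31.2% and 23.0% in the wild types, and Ngfr at 47.1% and 44.3% in the mutants and 46.3% and 38.7% in the wild types. The groups overlapped for these 3 as well.

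Of the 8 ligands of these receptors, 4 were in the matrix, and 0 of 4 passed the test (limma, smallest adjusted p = 0.994). Bdnf, the TrkB ligand, was at 3.17 and 3.36 FPKM in the mutants, against 3.83 and 3.93 FPKM in the wild types. Both mutants were below both wild types, with a log2 difference of -0.19. The neurturin gene Nrtn was at 3.60 and 4.39 FPKM in the mutants and 3.42 and 3.96 FPKM in the wild types, and the persephin gene Pspn at 0.876 and 2.09 FPKM in the mutants and 0.802 and 1.00 FPKM in the wild types, with overlap for both. The median log2 difference of the ligands was 0.018.

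Of 16 listed co-receptors and processing enzymes, 15 were tested and 0 passed (limma, smallest adjusted p = 0.994). Both mutants were above both wild types for 4 of the 15 and below them for 3, beside 12.5% above and 19.6% below over all genes tested, and the median log2 difference was 0.15. Sorcs1, which encodes a receptor of the sortilin family, was at 5.81 and 7.98 FPKM in the mutants and 5.06 and 4.88 FPKM in the wild types (log2 difference 0.39). Tnfrsf19, a relative of Ngfr in the TNF receptor family, was at 1.65 and 1.20 FPKM in the mutants and 2.73 and 2.00 FPKM in the wild types (-0.47). The proprotein convertase gene Pcsk5 was at 5.46 and 3.51 FPKM in the mutants and 6.09 and 5.81 FPKM in the wild types (-0.36). Among the most abundant, Sdc3, which encodes a heparan sulphate proteoglycan that binds GDNF, was at 50.2 and 55.8 FPKM in the mutants and 45.7 and 45.9 FPKM in the wild types. Furin, which cleaves neurotrophin precursors, was at 14.3 and 12.5 FPKM in the mutants and 15.6 and 13.2 FPKM in the wild types.

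Of 36 listed adaptors and downstream signalling genes, 33 were tested and 0 passed (limma, smallest adjusted p = 0.994). Both mutants were above both wild types for 4 and below them for 6 of the 33, beside the same 12.5% and 19.6% over all genes, with a median log2 difference of -0.010. The docking protein gene Dok5 was at 2.58 and 2.85 FPKM in the mutants and 1.42 and 2.20 FPKM in the wild types (log2 difference 0.41), and the Shc adaptor gene Shc4 at 11.4 and 17.2 FPKM in the mutants and 10.9 and 9.85 FPKM in the wild types (0.40). Ripk2, a kinase that can bind the Ngfr protein, was at 5.23 and 4.81 FPKM in the mutants and 6.52 and 5.88 FPKM in the wild types (-0.26). The most abundant were Arhgdia, at 184 and 209 FPKM in the mutants and 182 and 172 FPKM in the wild types, and Maged1, which binds the Ngfr protein, at 165 and 209 FPKM in the mutants and 168 and 169 FPKM in the wild types. All single genes of these 2 lists stand here as values, not calls.

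The genes whose pattern over the 4 samples was most like that of each receptor were found by the root mean square difference of centred log2(FPKM + 1) among 9475 genes of at least 5 FPKM. For Ret the nearest were Gm7271, also a listed marker of touch-sensing C fibres, at a distance of 0.0141, and Smc1a at 0.0141. They were Pcyox1l and Prkaca for Ngfr (0.0043 and 0.0097), 1810037I17Rik and Rgs2 for Ntrk2 (0.0046 and 0.0112), and Urgcp and Nhp2l1 for Ntrk3 (0.0022 and 0.0039). For Gfra1 they were Ugp2 and Acp2 (0.0038 and 0.0050), for Gfra3 Pigb and Nat6 (0.0095 and 0.0163), and for Gfra2 the nearest was Ddx27 (0.0028). With 4 samples such matches are common. Between 37 genes, for Ngfr, and 521 genes, for Ntrk3, lay within 0.05 of a receptor.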

How the data were processed

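Bulk RNA sequencing of dorsal root ganglia gave 1 value per gene in 2 mutant and 2 wild type samples, grouped and numbered by their titles. The tools were Cufflinks 2.2.1, TopHat2 2.1.2 and CASAVA on mm10, per the submitters' processing notes; the sources used here give neither their roles and settings nor strandedness or library scaling. The authors deposited FPKM for 14405 genes, and a list of 150 genes with group FPKM, log2 fold change, test score, p-value and q-value, per the file headers. FPKM hold no counts, so the depth is unknown and counting error cannot be stated.

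Values were tested as log2(FPKM + 1) with limma 3.58.1 (R 4.3.3; variance prior following mean expression) over the 14040 genes whose mean reached 1 FPKM in a group. Fold changes on this scale understate those of low genes. P-values were adjusted by Benjamini and Hochberg over all genes tested, with a threshold of 0.05. Residual degrees of freedom were 2, with 3.44 more from the prior. The code was tested on simulated data. Alternatives were a pseudocount of 0.1, other filters, scalings and priors, a replicate block, and leaving out each sample.

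The members and lists were chosen with earlier results of these data known. The naming rule takes all receptors, Prdm12, Avil and all ligands. From the other pathway lists it takes genes past the test, the 3 largest moderated t and the 2 highest means, from marker lists the 2 highest means, and for each receptor the 2 genes of nearest pattern. Some genes that the rule takes, and some receptors of these families, are not reported here. Coordinates are from GENCODE M21.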

Additional observations from a re-analysis of the deposited data

How the results depend on the processing

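The 7 receptors did not pass an adjusted p of 0.05 with limma under any of the 12 alternatives to the processing and the samples, where the smallest adjusted p was 0.320, for Ngfr without Mut 1. Ntrk3, Gfra1 and Gfra3 stayed below 0 and Ngfr above 0 throughout. Rescaling to the pan-neuronal genes gave 3 genes higher and 53 lower past the threshold, where the reported fit gave 0 and 0, and turned Ntrk2 to -0.12, Ret to -0.25 and Gfra2 to -0.014, while the median of Ntrk2 and Ntrk3 was then -0.22. That median was 0.061 after quantile normalization. With 1 sample left out, Ret ran from -0.27 to 0.30 and Gfra2 from -0.052 to 0.53, and 0 to 2 genes passed higher and 0 to 3 lower; a lone sample is then assumed to vary like the other group. With the replicate number as a block, 3 genes passed higher and 58 lower, 0 of them receptors (Ngfr adjusted p = 0.422). Prdm12 passed with the block (limma adjusted p = 0.0250) and with pan-neuronal scaling (5.20e-05). In the other fits with all 4 samples its adjusted p was 0.159 to 0.198. With pan-neuronal scaling its SE was 0.42, against 0.21 in the reported fit, so the smaller p there did not come from closer samples. It came from more degrees of freedom in the variance prior of that fit, which also bears on the 3 and 53 genes that passed. Same-numbered samples deviated together over genes (r = 0.481), but 2 pairs with no stated shared source do not establish a pairing. Genes at an unadjusted p under 0.05 numbered 190 higher and 422 lower; median ratio scaling gave 251 and 366, quantile normalization 268 and 357, pan-neuronal scaling 21 and 400, and leaving out Mut 1 880 and 927. The cause of these shifts was not tested. Of 462 values of 39 other named genes under alternatives, 441 moved by less than 1 SD. That count says little, since many of the values could not move further. Filters, priors and the block leave a difference unchanged, and leaving out 1 sample shifts it by no more than 1 SD. Only the pseudocount and the scalings could move it by more, and most of the larger moves came with pan-neuronal scaling. The gap between the class medians ran from -0.26 to 0.28 with 1 sample left out. Adding Gfra1 to the nociceptor receptors or leaving out Ret moved the class medians by less than the spread between replicates. What depth limits cannot be stated, since the files hold no counts.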

Other observations

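The ratio of the TrkB gene Ntrk2 to the TrkC gene Ntrk3, examined after the values of both were seen, was 1.64 and 1.66 in Mut 1 and 2, against 1.40 and 1.44 in WT 1 and 2. The mutants and wild types did not overlap in it. That follows from Ntrk2 being higher and Ntrk3 lower in both mutants, as given above, so it is no further evidence. The ratio does not depend on the scaling of a library, and how often other gene pairs behave in this way was not computed. An exact two-sided permutation test of 2 against 2 cannot give a p below 0.333, so no call is made. The ratio of the neurturin co-receptor gene Gfra2 to the artemin co-receptor gene Gfra3 was 0.877 and 1.18 in the mutants and 0.601 and 0.957 in the wild types, with overlap.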
